A study of Mus musculus with 12 samples.

Results

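The genes followed here were every tubulin of the Tuba and Tubb families, tropomyosin (Tpm), myosin light chain (Myl with a digit) and annexin (Anxa with a digit) on the array, with the cytoplasmic actins Actb and Actg1. This gave 66 of 55681 probes and 46 of the 55 RefSeq symbols that fit the rule, and 36 of these genes entered the tests, of 13897 genes in all. The other 10, Anxa10, Myl1, Myl2, Myl3, Myl10, Tuba3a, Tuba3b, Tubal3, Tubb1 and Tubb3, were well above background on 0 arrays. Of the 36, 31 were read by a probe above background on every array. Tubb2b, Anxa13, Anxa8, Myl7 and Tuba1b were not.

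Alpha and beta tubulins pair into microtubules, and the cytoplasmic beta and gamma actins polymerise into filaments that tropomyosins coat and nonmuscle myosin pulls on. Myosin light chains bind the necks of the myosin heavy chains, and phosphorylation of the regulatory ones sets whether the motor contracts. Annexins bind acidic phospholipids when calcium rises and act in membrane repair, vesicle traffic and the link of membrane to cortical actin. In adult liver, hepatocytes hold most of the RNA, while activated stellate cells, macrophages and dividing cells are rich in several of these gene products.

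Livers of male C57BL/6NJcl mice were profiled on 12 single-colour arrays, 2 per group. One diet was CDAHFD, a choline-deficient, amino acid-defined food with 60 kcal% fat and 0.1% methionine that is used to bring on steatohepatitis, taken after 1, 2 and 6 weeks at 7, 8 and 12 weeks of age. The controls were of the same sex, strain and ages and ate CE-2, a standard chow, so the diets differ in more than choline. The labels do not say that the 2 arrays of a group came from separate mice, so the p-values reflect array-to-array spread alone, part or all of which may be technical. Levels are log2 intensities relative to the 75th percentile of each array, and differences are CDAHFD minus control with the standard error of a limma fit over all genes (n = 2 arrays per group), adjusted by Benjamini-Hochberg. A gene was called at an adjusted p under 0.05. Levels of different probes are not compared.

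Hepatocyte markers were measured on every array, 6 of 6, with a summed linear level of 128 to 160 on CDAHFD arrays and 169 to 294 on control arrays, in units of each array's 75th percentile. The controls were at 249 to 294 at 1 week and at 169 to 172 at 6 weeks. Called lower were 5, 4 and 2 of the 6 at 1, 2 and 6 weeks, beside 15%, 14.9% and 16.2% of all genes. Control replicate 1 at 1 week stood apart: 308 bright spots lay at least 8-fold below every other array, against 0 to 2 on the others, and its replicate pair differed by an SD of 0.85 log2, against 0.29 to 0.49 in the other groups. Slide 1 held weeks 1 and 2 and slide 2 held week 6, so each weekly diet difference lies within 1 slide and week and slide cannot be told apart. Below, some 1-week CDAHFD values are also set against the controls of weeks 2 and 6. Those controls were older and partly on the other slide, so there diet cannot be told apart from age and slide.

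Most of the members that changed were higher on CDAHFD, and more of them were called at 6 weeks than earlier. At 1 week 18 of 36 genes were called, 13 higher and 5 lower, where 40.9% of all genes tested were called, 25.9% higher and 15% lower. At 2 weeks 14 were higher and 2 lower, against 22.9% and 14.9% of all genes (37.8% either way). At 6 weeks 21 were higher and 2 lower, against 24.5% and 16.2% (40.7% either way). In the average over weeks 20 were higher and 6 lower, against 35.6% and 25.7% (61.3% either way). With a difference of at least 2-fold required as well, 11, 11 and 15 were called at 1, 2 and 6 weeks and 11 in the average, against 17.6%, 17.7%, 20% and 18.3% of all genes. The members' median difference was 0.31, 0.45 and 0.52 log2 at 1, 2 and 6 weeks, beside 0.13, 0.05 and 0.03 over all genes. Subtracting each array's median instead moved all genes down to -0.20, -0.18 and -0.19 and gave 9 higher and 10 lower, 13 and 4, and 17 and 4, and the percentile over all probes gave the same counts. Quantile normalization gave 15 and 5, 17 and 2, and 22 and 2, and normexp background correction gave 11 and 6, 13 and 2, and 19 and 3. Under each of these scalings the members' median lay above that of all genes at every week, by 0.18 to 0.78 log2.

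Of the 36 genes, 12 were higher at all 3 weeks (33.3%, where 15.2% of all genes were) and 2 were lower at all 3 (5.56%, against 7.07%). The 12 were Anxa1, Anxa2, Anxa3, Anxa4, Anxa5, Anxa9, Tubb2b, Tubb6, Tuba1a, Tpm4, Myl12a and Actg1, and the 2 were Tuba4a and Tpm1. All 6 CDAHFD arrays lay above all 6 control arrays for 15 genes (41.7%, against 21.1% of the 13877 genes with a value on every array) and below them for 2 (5.56%, against 11%). The 2 were again Tuba4a and Tpm1. Both counts read each gene by its brightest probe. At 1 week Actg1 was called by that probe only. Averaged over its 5 probes Tpm1 was called higher at each week (0.79, 0.94 and 0.75), so its place among the lower genes rests on 1 probe. The second probe of Tubb2b was lower at 1 week (-1.18, adjusted p = 0.0241 in a fit over all probes). The Tubb2b probe counted here passed the filter only through the CDAHFD arrays, so its call is partly set by that choice. At no week were 11 of the 36 genes called, and the matching share of all genes was not counted.

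**Figure D1:**
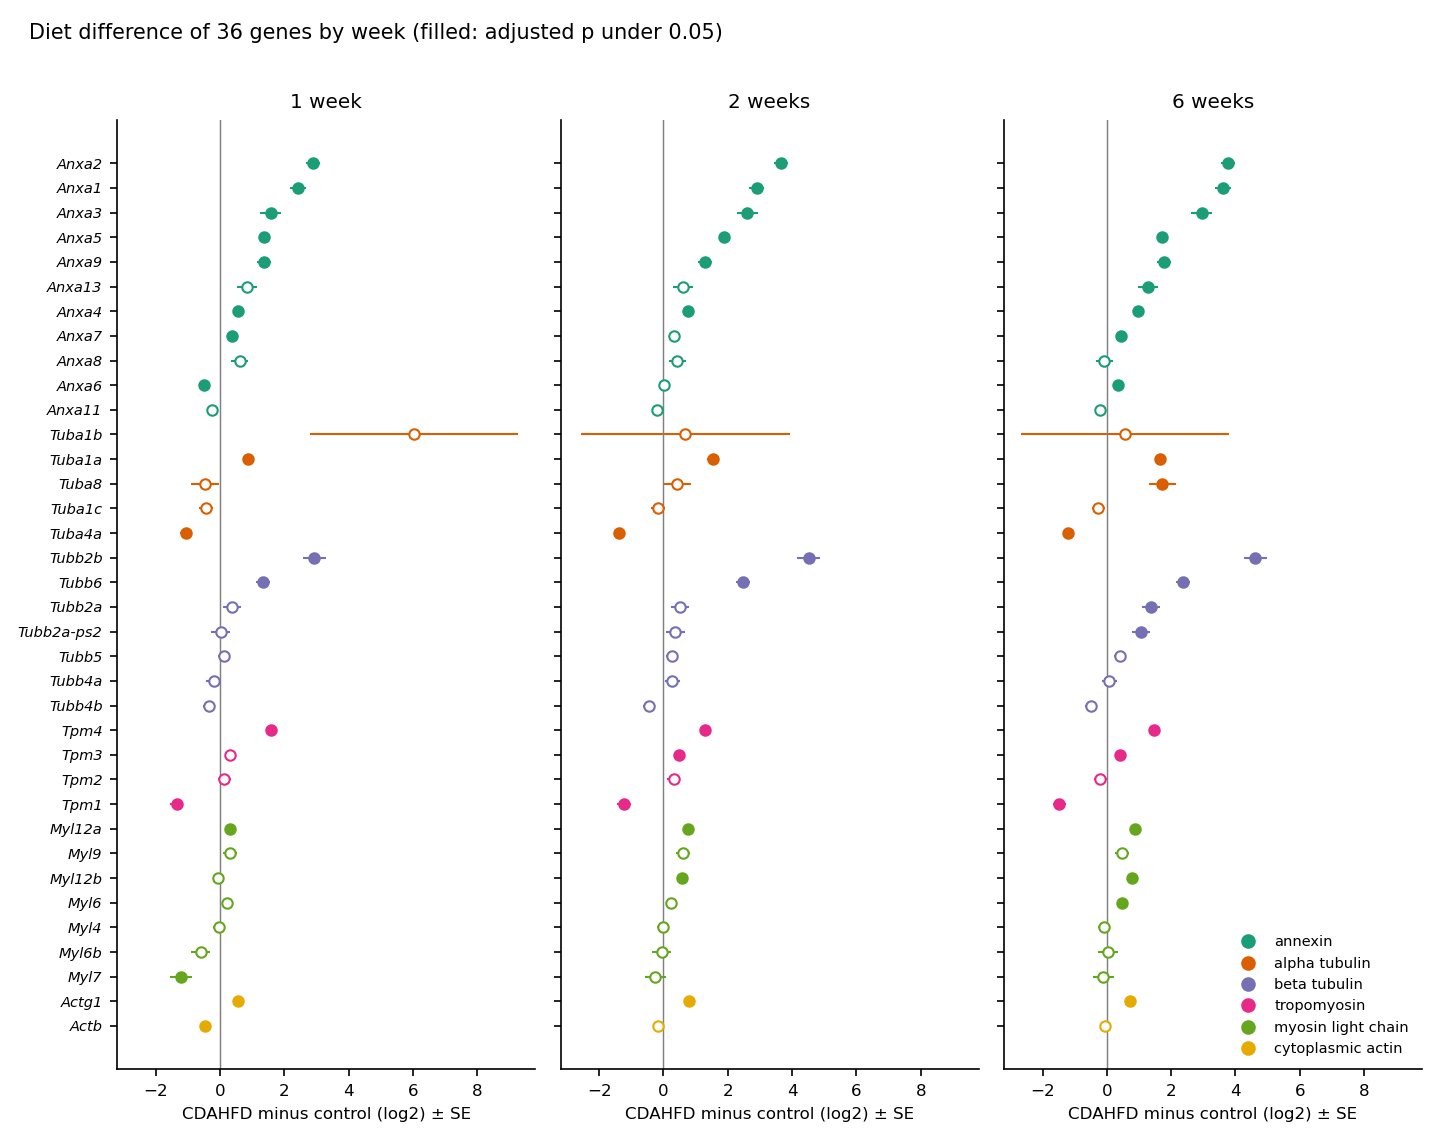
Difference between CDAHFD and control (log2, with the standard error of the fit) for each of the 36 genes at 1, 2 and 6 weeks, coloured by family, filled where adjusted p was under 0.05. Annexins run to 3.78 at 6 weeks, Tuba4a and Tpm1 lie below 0 at each week, and the wide bars of Tuba1b come from 1 control array.

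The start regions of 29 of the tested genes were read from RefSeq (GRCm38.p6), as 34 windows of 300 bases that run from 250 before to 50 after each listed start. Actb, Anxa3, Anxa6, Anxa13, Tubb2b, Tubb6 and Tubb2a-ps2 were not searched. Member windows on 1 chromosome were left out, while the windows of all genes kept that chromosome. The 34 windows were searched on both strands for the CArG box, the site of serum response factor (SRF), whose known targets include actin and light chain genes. It lay in 5 of the 34 windows (14.7%), those of Actg1, Anxa5, Myl6, Myl7 and Myl9, and in 1.63% of the 32851 windows of all genes. TGANTCA with any base at N, a broader string than the AP-1 site, which takes C or G there, lay in 8.82% against 7.81%. It lay in Anxa2, Myl6b and Myl12a, as TGAGTCA in each. GGGCGG lay in 61.8% against 35.7% and TATAAA in 11.8% against 13.6%. TATAAA can lie inside a CArG box, and lies in none of the 5 found here. A match is a string of letters and not a measured site or a cause. The windows of members called higher that hold the CArG box, and of Anxa2, the annexin with the largest difference, are given below 5′ to 3′ on the gene's strand, with the CArG box, or TGANTCA in Anxa2, in capitals.
Actg1 (chr11:120348446-120348745, minus strand): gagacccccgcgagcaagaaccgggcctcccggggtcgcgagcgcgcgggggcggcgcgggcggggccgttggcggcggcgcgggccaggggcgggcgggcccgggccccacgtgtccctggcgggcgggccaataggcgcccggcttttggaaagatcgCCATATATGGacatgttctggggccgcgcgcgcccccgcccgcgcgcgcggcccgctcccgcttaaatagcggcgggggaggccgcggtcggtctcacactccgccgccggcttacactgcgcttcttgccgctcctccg
Anxa2 (chr9:69453433-69453732, plus strand): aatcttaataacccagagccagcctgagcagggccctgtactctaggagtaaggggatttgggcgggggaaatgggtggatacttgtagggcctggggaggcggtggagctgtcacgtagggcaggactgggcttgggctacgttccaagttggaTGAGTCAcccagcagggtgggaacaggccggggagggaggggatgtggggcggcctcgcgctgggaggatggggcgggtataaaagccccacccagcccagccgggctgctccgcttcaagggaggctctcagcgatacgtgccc
Anxa5 (chr3:36475838-36476137, minus strand): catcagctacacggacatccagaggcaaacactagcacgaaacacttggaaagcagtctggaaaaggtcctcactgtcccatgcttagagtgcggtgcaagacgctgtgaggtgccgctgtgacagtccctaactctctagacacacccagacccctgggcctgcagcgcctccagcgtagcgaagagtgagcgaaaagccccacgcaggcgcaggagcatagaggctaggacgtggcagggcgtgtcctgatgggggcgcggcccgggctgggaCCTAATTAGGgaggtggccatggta
Myl6 (chr10:128492960-128493259, minus strand): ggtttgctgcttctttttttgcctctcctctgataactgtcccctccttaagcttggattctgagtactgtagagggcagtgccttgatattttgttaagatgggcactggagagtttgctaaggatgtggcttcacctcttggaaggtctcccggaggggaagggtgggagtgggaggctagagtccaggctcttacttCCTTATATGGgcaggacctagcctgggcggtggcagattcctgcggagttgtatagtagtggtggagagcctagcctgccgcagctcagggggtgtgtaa
Myl9 (chr2:156775214-156775513, plus strand): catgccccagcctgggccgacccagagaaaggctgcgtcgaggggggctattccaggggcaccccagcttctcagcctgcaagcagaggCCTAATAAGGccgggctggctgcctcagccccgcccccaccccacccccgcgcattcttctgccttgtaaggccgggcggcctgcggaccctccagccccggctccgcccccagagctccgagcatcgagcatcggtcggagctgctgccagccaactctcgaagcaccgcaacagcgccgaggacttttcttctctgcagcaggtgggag
The CArG box of Actg1, CCATATATGG, starts 90 bases before the listed start, that of Myl9, CCTAATAAGG, 161 before, that of Myl6, CCTTATATGG, 50 before 1 of its 2 listed starts, and that of Anxa5, CCTAATTAGG, 25 after. The TGAGTCA of Anxa2 starts 95 bases before. Of these 5 genes, Anxa2, Anxa5 and, by its brightest probe, Actg1 were higher at every week, Myl6 at 6 weeks and Myl9 in the average over weeks.

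Of the annexins, 7 of 11 were higher at 1 week, 6 at 2 weeks and 9 at 6 weeks, with Anxa6 the only member lower, at 1 week. The shares higher, 63.6%, 54.5% and 81.8%, stand beside 25.9%, 22.9% and 24.5% of all genes. The shares lower, 9.09%, 0% and 0%, stand beside 15%, 14.9% and 16.2%. Under the other scalings 5 or 6, 5 or 6, and 7 to 9 were higher, and under median centring and the percentile over all probes 2, 1 and 1 were lower.

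Anxa2, which forms a membrane-bound complex with S100a10 and bundles actin at the cortex, had the largest difference of the 11 annexins at every week. On CDAHFD its levels were 3.04 and 2.62 at 1 week, 3.36 and 3.50 at 2 weeks and 3.22 and 3.95 at 6 weeks, against -0.19 and 0.09, -0.25 and -0.19, and -0.24 and -0.15 in controls. The diets did not overlap at any week, and the controls spanned less than the CDAHFD arrays. Anxa2 was 7.35-fold higher at 1 week (2.88 ± 0.22, adjusted p = 1.45e-05), 12.6-fold at 2 weeks (3.65 ± 0.22, adjusted p = 2.49e-06) and 13.7-fold at 6 weeks (3.78 ± 0.22, adjusted p = 1.29e-06).

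Anxa1, a glucocorticoid-induced annexin that restrains neutrophil recruitment, came next. It was at -0.03 and -0.75, 0.19 and 0.50, and 1.23 and 0.95 on CDAHFD at 1, 2 and 6 weeks, against -2.94 and -2.69, -2.78 and -2.33, and -2.58 and -2.47 in controls. All CDAHFD arrays lay above all controls, and both arrays of 6 weeks lay above both of 1 week. The rise was 5.37-fold, 7.46-fold and 12.3-fold (2.43, 2.90 and 3.62, each ± 0.24; adjusted p = 5.72e-05, 1.31e-05 and 2.74e-06). A second probe of the gene gave 2.23, 3.38 and 3.66. The change of 1.19 in the diet difference between 1 and 6 weeks did not pass (adjusted p = 0.0674), but it passed under the 4 other scalings (1.24 to 1.37, adjusted p = 0.0162 to 0.0476) and without CDAHFD replicate 1 at 1 week (1.55, adjusted p = 0.0478).

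Anxa3, an annexin found in neutrophils, was at -2.70 and -3.25, -2.49 and -1.89, and -1.43 and -1.97 on CDAHFD, against -4.47 and -4.64, -5.24 and -4.35, and -4.79 and -4.52 in controls. The lowest CDAHFD array lay above the highest control. Its differences were 1.58, 2.61 and 2.96 (each ± 0.33; adjusted p = 0.00368, 1.77e-04 and 6.55e-05). With normexp they were 0.63, 1.51 and 1.94 and stayed called.

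Anxa5, which binds phosphatidylserine and is used as a probe for dying cells, was at 3.17 and 2.89, 3.39 and 3.59, and 3.35 and 3.67 on CDAHFD, against 1.53 and 1.78, 1.61 and 1.60, and 1.80 and 1.79 in controls. The groups lay apart by more than either spread at each week. It was 2.59-fold, 3.69-fold and 3.28-fold higher (1.37, 1.88 and 1.71, each ± 0.14; adjusted p = 7.39e-05, 7.16e-06 and 9.02e-06).

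Anxa4, an annexin of epithelia, and Anxa9, a divergent member, were called at every week as well. Anxa4 was at 0.83 and 0.75, 0.95 and 1.07, and 1.21 and 1.30 on CDAHFD, against 0.19 and 0.28, 0.37 and 0.11, and 0.28 and 0.26 in controls, with no overlap. Its differences were 0.56, 0.78 and 0.98 (each ± 0.11; adjusted p = 0.00264, 3.31e-04 and 5.73e-05), but at 1 week it was 0.23 with median centring (adjusted p = 0.135) and 0.27 with the percentile over all probes (adjusted p = 0.0744). Anxa9 lay between -4.13 and -3.49 on CDAHFD and between -5.55 and -5.09 in controls and was 1.36, 1.30 and 1.77 higher (each ± 0.22; adjusted p = 8.55e-04, 0.00105 and 1.18e-04). Anxa9 is dim, and with normexp it was at 0.04 and 0.25 at 1 and 2 weeks and not called (adjusted p = 0.90 and 0.434).

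Anxa7 and Anxa13 were called at some weeks only. Anxa7, known as synexin and linked to exocytosis, had differences of 0.37, 0.33 and 0.44 (each ± 0.13; adjusted p = 0.0479, 0.0707 and 0.0213), and these calls ended with median centring (adjusted p = 0.837 at 1 week and 0.212 at 6 weeks) and when any of several single arrays was left out, such as control replicate 2 of the week (adjusted p = 0.12 and 0.118). Without control replicate 1 at 2 weeks it was called there (0.51, adjusted p = 0.0225). Anxa13, an epithelial annexin, had differences of 0.83, 0.60 and 1.28 (each ± 0.31; adjusted p = 0.0515, 0.151 and 0.00725), and the 6-week call ended with normexp (0.49, adjusted p = 0.137). Without control replicate 2 or CDAHFD replicate 2 at 1 week it was also called there (1.18 and 1.23, adjusted p = 0.0213 and 0.0187). Anxa8 was at 0.62, 0.43 and -0.08 (adjusted p = 0.0833, 0.223 and 0.835) and Anxa11 at -0.25, -0.19 and -0.20 (adjusted p = 0.12, 0.244 and 0.212).

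Anxa6, a large annexin of endosomes, was lower on CDAHFD at 1 week and higher at 6 weeks. It was at 1.73 and 1.84, 1.98 and 2.02, and 2.31 and 2.29 on CDAHFD, against 2.24 and 2.31, 2.02 and 1.91, and 1.95 and 1.98 in controls. The CDAHFD arrays lay below the controls at 1 week, beside them at 2 weeks and above them at 6 weeks. The differences were -0.48, 0.03 and 0.34 (each ± 0.09; adjusted p = 0.00237, 0.816 and 0.0144). Set against the 2- and 6-week controls, the 1-week value was -0.18 (adjusted p = 0.119), and at 6 weeks it was 0.11 with median centring (adjusted p = 0.432) and was not called without either control array (adjusted p = 0.0808 and 0.0582).

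**Figure D2:**
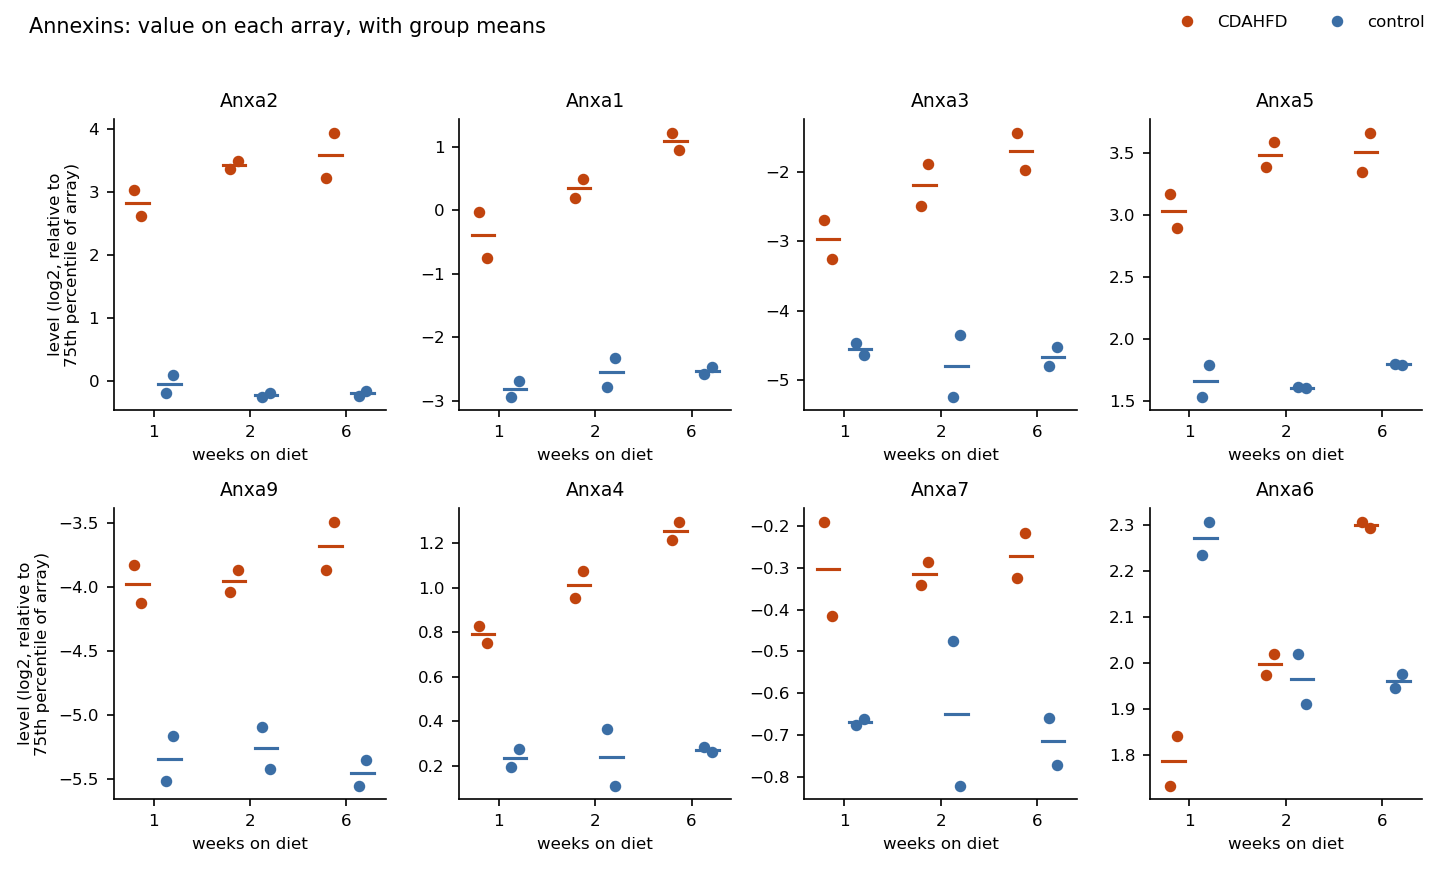
Level of 8 annexins on each array (log2, relative to the array's 75th percentile) by weeks on diet, CDAHFD in orange and control in blue, with the mean of each pair as a bar. For Anxa2 the CDAHFD arrays lie between 2.62 and 3.95 and the controls between -0.25 and 0.09, while for Anxa6 the diets trade places between 1 and 6 weeks.

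Tubulins were called in both directions, at 1 and 2 weeks with a share higher near that of all genes. Of all 12, 25%, 25% and 50% were higher at 1, 2 and 6 weeks, beside 25.9%, 22.9% and 24.5% of all genes. Lower were 8.33% at each week, beside 15%, 14.9% and 16.2%. Of 5 alpha tubulins, 1, 1 and 2 were higher at 1, 2 and 6 weeks and 1 was lower at each, or 2 lower at 1 week under median centring and the percentile over all probes. Of 7 beta tubulins, 2, 2 and 4 were higher and 0 lower, though under median centring and the percentile over all probes 1 (Tubb4b) was lower at each week, and with normexp 1, 2 and 4 were higher and 1 was lower at 6 weeks. Tubulin genes are close copies of each other, and how far each probe reads its neighbours was not tested.

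Tubb6, a beta tubulin known to rise in regenerating mouse muscle, was at 1.02 and 0.67, 0.89 and 1.02, and 0.48 and 1.12 on CDAHFD, against -0.52 and -0.44, -1.66 and -1.38, and -1.76 and -1.38 in controls. CDAHFD levels were alike at the 3 weeks, and the 1-week controls lay about 1 log2 unit above the later ones. Tubb6 was 2.51-fold, 5.56-fold and 5.16-fold higher (1.33, 2.47 and 2.37, each ± 0.21; adjusted p = 9.19e-04, 1.63e-05 and 1.67e-05). Measured from the 2- and 6-week controls, the 1-week difference was 2.39.

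Tubb2b, known as a beta tubulin of developing neurons, was by its chosen probe below background on all 6 control arrays and above it on all 6 CDAHFD arrays. By this probe it was at least 3.89-fold, 5.17-fold and 6.52-fold higher at 1, 2 and 6 weeks (adjusted p = 1.82e-04, 9.4e-06 and 5.87e-06). The bound takes, for each control array, its dimmest signal from any probe above background or this probe's own, whichever is brighter. The probe entered the tests only through the CDAHFD arrays, so these p-values are no separate support for the difference. A second Tubb2b probe was above background on 2, 1 and 1 control arrays and on 2, 2 and 1 CDAHFD arrays at 1, 2 and 6 weeks. It gave -1.18, -0.18 and -0.42 (adjusted p = 0.0241, 0.745 and 0.394 in a fit over all probes), so the 2 probes disagree. With normexp the chosen probe was at 0.16, 0.88 and 1.07 at 1, 2 and 6 weeks (adjusted p = 0.678, 0.0287 and 0.00807), smaller than the bounds above, so the size of the difference depends on the background correction.

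Tuba1a, an alpha tubulin of neurons, was at -0.74 and -0.91, -0.82 and -0.83, and -0.84 and -0.40 on CDAHFD, against -1.82 and -1.58, -2.53 and -2.18, and -2.27 and -2.29 in controls. No CDAHFD array reached down to a control. The rise was 1.83-fold, 2.88-fold and 3.16-fold (0.87, 1.53 and 1.66, each ± 0.17; adjusted p = 0.00249, 7.03e-05 and 3.23e-05). As for Tubb6, the 1-week controls were the highest, and against the later controls the difference was 1.49.

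Tuba4a, an alpha tubulin known from platelets and muscle, fell at every week. It was at 2.36 and 2.36, 2.10 and 1.71, and 1.72 and 2.11 on CDAHFD, against 3.32 and 3.54, 3.40 and 3.16, and 3.03 and 3.20 in controls. Every CDAHFD array lay below every control array. The differences were -1.07, -1.38 and -1.20 (each ± 0.17; adjusted p = 7.64e-04, 1.31e-04 and 2.83e-04), or 0.476-fold, 0.385-fold and 0.436-fold.

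Tubb2a, Tubb2a-ps2 and Tuba8 passed at 6 weeks and at neither earlier week. Tubb2a, a broadly expressed beta tubulin, was at 3.36 and 2.87, 3.07 and 3.19, and 3.52 and 3.15 on CDAHFD, against 2.43 and 3.06, 3.0 and 2.24, and 1.91 and 2.02 in controls. Its differences were 0.37, 0.51 and 1.37 (each ± 0.28; adjusted p = 0.32, 0.188 and 0.004), with overlap at 1 week and none later. The controls were lowest at 6 weeks. Without control replicate 1 it was also higher at 2 weeks (0.89, adjusted p = 0.0462), as with quantile normalization (0.82, adjusted p = 0.0394), and from the 2- and 6-week controls it was higher at 1 week (0.83, adjusted p = 0.0273). The pseudogene Tubb2a-ps2 was at 0.02, 0.37 and 1.06 (each ± 0.29; adjusted p = 0.97, 0.334 and 0.0138), a 6-week call that ended without control replicate 1 (0.82, adjusted p = 0.107) or CDAHFD replicate 1 (0.83, adjusted p = 0.0833) of that week. Tuba8, a divergent alpha tubulin, was at -0.65 and -0.30 on CDAHFD against -2.33 and -2.08 in controls at 6 weeks (1.73 ± 0.43, adjusted p = 0.0129), but the call ended with normexp (adjusted p = 0.0544) and without control replicate 1 or CDAHFD replicate 2 of that week (adjusted p = 0.0747 and 0.0863).

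Tubb4b, a widely expressed beta tubulin, was lower only in the average over weeks (-0.43 ± 0.11, adjusted p = 0.00456), a call that ended with quantile normalization (-0.11, adjusted p = 0.447). At 6 weeks it was at -0.50 (adjusted p = 0.0507), and without CDAHFD replicate 2 of that week it passed (-0.74, adjusted p = 0.00987). Tuba1c was at -0.44, -0.17 and -0.26 (adjusted p = 0.113, 0.559 and 0.344), Tubb5 at 0.12, 0.27 and 0.40 (adjusted p = 0.614, 0.279 and 0.108) and Tubb4a at -0.20, 0.28 and 0.08 (adjusted p = 0.506, 0.358 and 0.818). None of these 3 passed at any week, but each did under some alternative. Tuba1c was lower at 1 week with median centring (-0.77, adjusted p = 0.00954) and the percentile over all probes (-0.73, adjusted p = 0.0133). Against the 2- and 6-week controls the 1-week values of Tubb5 (0.58, adjusted p = 0.0164) and Tubb4a (0.71, adjusted p = 0.0166) passed, and without CDAHFD replicate 1 at 6 weeks Tubb5 was 0.73 higher there (adjusted p = 0.00223). Tuba1b was read by a probe in a dim block of control replicate 1 at 1 week, where it was at -8.13, against 2.88 to 3.26 on the other control arrays and 3.28 to 3.79 on CDAHFD arrays. Its SE was 3.24 and no week passed. Without the other 1-week control the 1-week value was 11.7, and with the dim blocks masked it was 0.69 higher at 2 weeks (adjusted p = 0.00608) and 0.56 at 6 weeks (adjusted p = 0.0153). Its other probe gave -0.34, 0.13 and 0.04 (adjusted p = 0.244, 0.702 and 0.912 in the fit over all probes).

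**Figure D3:**
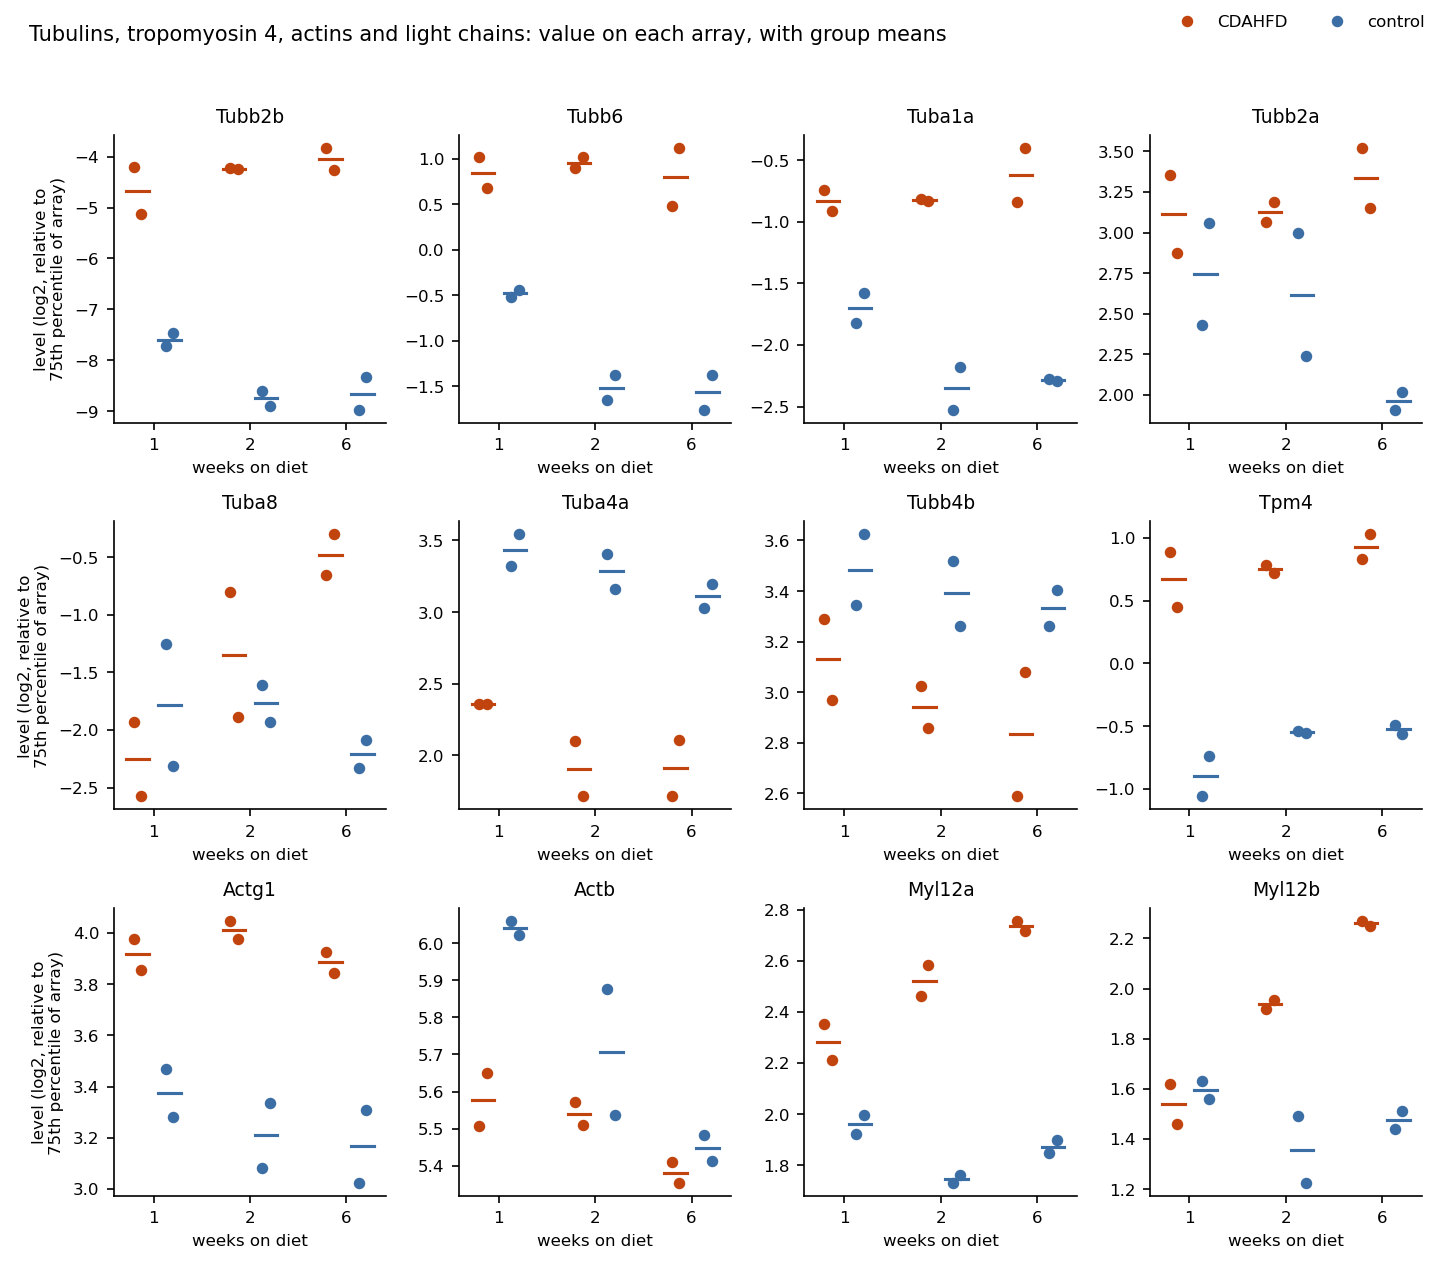
Level on each array (log2, relative to the array's 75th percentile) of 7 tubulins, Tpm4, both cytoplasmic actins and the light chains Myl12a and Myl12b by weeks on diet, CDAHFD in orange and control in blue, with the mean of each pair as a bar. The Tubb2b probe shown is below background in controls. Tuba4a is lower on CDAHFD at each week, and the controls of Tubb6 and Tuba1a are highest at 1 week.

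Of the 4 tropomyosins, 1, 2 and 2 were higher at 1, 2 and 6 weeks and 1, Tpm1, was lower at each week by its brightest probe. The shares higher, 25%, 50% and 50%, stand beside 25.9%, 22.9% and 24.5% of all genes. Lower were 25% at each week, beside 15%, 14.9% and 16.2%. Tpm4, a tropomyosin of nonmuscle cells, was at 0.89 and 0.45, 0.78 and 0.72, and 0.83 and 1.03 on CDAHFD, against -1.06 and -0.74, -0.54 and -0.55, and -0.49 and -0.56 in controls. The groups lay more than 1 log2 unit apart at each week. Tpm4 was 2.97-fold, 2.46-fold and 2.74-fold higher (1.57, 1.30 and 1.45, each ± 0.16; adjusted p = 5.09e-05, 1.15e-04 and 4.36e-05). Tpm3, which is broadly expressed, had differences of 0.32, 0.47 and 0.40 (each ± 0.14; adjusted p = 0.0931, 0.0235 and 0.0474). The Tpm3 calls ended with median centring (adjusted p = 0.165 and 0.328 at 2 and 6 weeks), without control replicate 1 of the same week (adjusted p = 0.14 and 0.335; the 6-week value was then 0.22), with its second probe (-0.54 and 0.61, adjusted p = 0.194 and 0.137) and without CDAHFD replicate 2 of the same week (adjusted p = 0.154 and 0.194). With quantile normalization Tpm3 was also called at 1 week (0.66, adjusted p = 0.0131). Tpm2, of skeletal and smooth muscle, was at 0.13, 0.31 and -0.20 (adjusted p = 0.634, 0.254 and 0.458).

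The 5 probes of Tpm1, a gene whose splicing gives muscle and nonmuscle tropomyosins, went in opposite directions. The brightest, named for transcript NM_001164255, was at -1.17 and -0.70, -1.39 and -1.43, and -1.71 and -1.82 on CDAHFD, against 0.59 and 0.24, -0.45 and 0.08, and -0.41 and -0.16 in controls. The probe for NM_001164251 was at -2.37 and -2.77, -2.50 and -2.41, and -3.10 and -2.15 on CDAHFD, against -4.17 and -4.19, -4.15 and -4.36, and -4.67 and -4.42 in controls. Both lay apart between the diets at every week, the first lower and the other higher on CDAHFD. In a fit over all probes the first fell by 1.35, 1.23 and 1.48 (adjusted p = 7.27e-04, 0.00125 and 3.25e-04), and the other was 1.61, 1.80 and 1.92 higher (adjusted p = 0.00115, 5.71e-04 and 3.16e-04).

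The 3 remaining Tpm1 probes were higher on CDAHFD in their means, like that of NM_001164251. The probe for NM_001164249 was 1.59, 2.05 and 1.83 higher (adjusted p = 0.00306, 7.70e-04 and 0.00134). It lies in a dim block of control replicate 1 at 1 week, where it read -2.80, beside -2.99 on the other 1-week control. The pair for NM_001164248 was 1.11, 0.92 and 0.85 higher by 1 probe (adjusted p = 0.0109, 0.0296 and 0.0385) and by the other, which did not pass at 6 weeks, the differences were 1.01, 1.18 and 0.60 (adjusted p = 0.0276, 0.0154 and 0.167). Averaging the 5 probes gave 0.79, 0.94 and 0.75, called higher at each week (adjusted p = 0.0108, 0.00453 and 0.0137), so the direction given for the gene depends on the probe. Which exons the probes read was not tested.

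**Figure D4:**
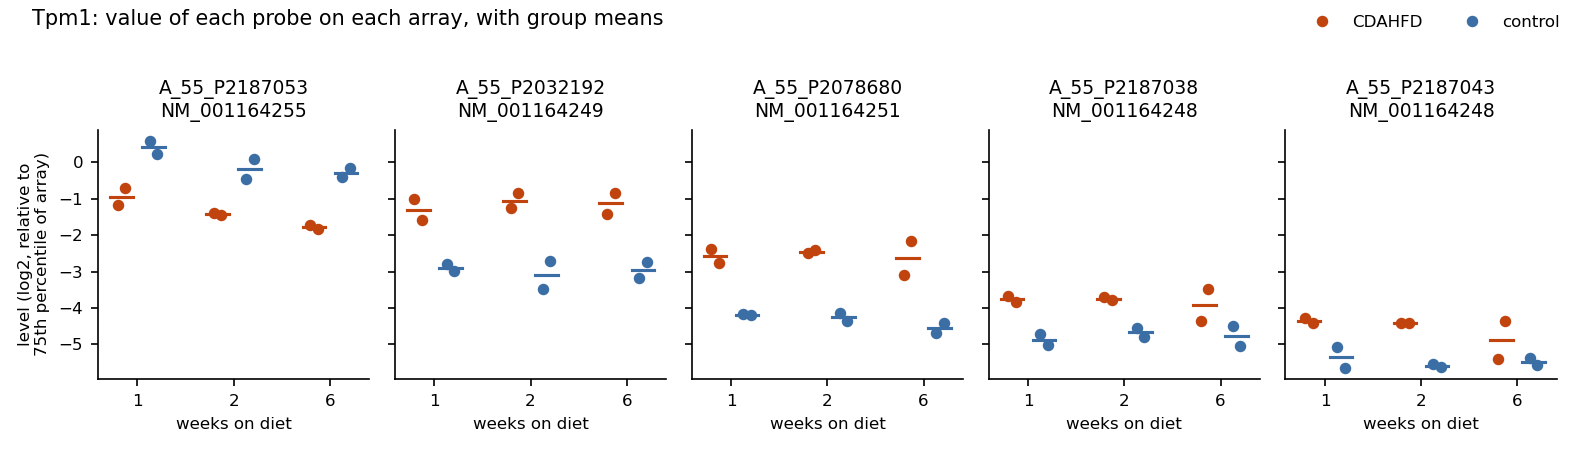
Level of each of the 5 Tpm1 probes on each array (log2, relative to the array's 75th percentile) by weeks on diet, with the probe and its transcript above, CDAHFD in orange and control in blue and the mean of each pair as a bar. The probe on the left is lower on CDAHFD at each week, and the means of the other 4 are higher.

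Among the 7 light chains, 1, 2 and 3 were higher at 1, 2 and 6 weeks and 1 was lower, Myl7 at 1 week. The shares higher, 14.3%, 28.6% and 42.9%, stand beside 25.9%, 22.9% and 24.5% of all genes. The shares lower, 14.3%, 0% and 0%, stand beside 15%, 14.9% and 16.2%. Under median centring and the percentile over all probes 0 were higher and 3 lower at 1 week. The nonmuscle regulatory light chains Myl12a and Myl12b carried most of the calls. Myl12a was at 2.35 and 2.21, 2.46 and 2.58, and 2.76 and 2.72 on CDAHFD, against 1.92 and 2.00, 1.73 and 1.76, and 1.85 and 1.90 in controls. Its differences were 0.32, 0.78 and 0.86 (each ± 0.10; adjusted p = 0.0224, 1.47e-04 and 6.01e-05), but at 1 week it was at -0.01 with median centring (adjusted p = 0.966) and the call ended without any 1 of 3 arrays of that week, control replicates 1 and 2 and CDAHFD replicate 1 (adjusted p = 0.114, 0.05 and 0.159).

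Myl12b was at 1.62 and 1.46, 1.92 and 1.95, and 2.27 and 2.25 on CDAHFD, against 1.63 and 1.56, 1.49 and 1.22, and 1.44 and 1.51 in controls. The diets overlapped at 1 week and lay apart at 2 and 6 weeks. The differences were -0.06, 0.58 and 0.78 (each ± 0.11; adjusted p = 0.708, 0.0023 and 2.96e-04). At 1 week Myl12b was lower with median centring (-0.39, adjusted p = 0.0264) and the percentile over all probes (-0.34, adjusted p = 0.0331). Myl6, the essential light chain of nonmuscle and smooth muscle myosin, was at 0.21, 0.23 and 0.48 (each ± 0.11; adjusted p = 0.162, 0.136 and 0.00634), and the 6-week call ended with median centring (0.25, adjusted p = 0.146) and with its second probe (0.34, adjusted p = 0.419). With quantile normalization it was higher at 1 and 2 weeks too (0.67 and 0.62, adjusted p = 0.00215 and 0.00288).

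Myl9, the regulatory light chain of smooth muscle and myofibroblasts, was at -0.34 and -0.57, -0.82 and -0.78, and -1.26 and -0.68 on CDAHFD, against -1.02 and -0.49, -1.25 and -1.55, and -1.42 and -1.48 in controls. It passed at no week (0.30, 0.60 and 0.47, each ± 0.22; adjusted p = 0.287, 0.0516 and 0.106) but was higher in the average over weeks (0.46 ± 0.12, adjusted p = 0.00884), a call that ended with median centring (0.19, adjusted p = 0.161). It passed at 2 weeks with array weights (adjusted p = 0.0247) and at 6 weeks without CDAHFD replicate 1 (0.76, adjusted p = 0.018). Measured from the 2- and 6-week controls, the 1-week difference was 0.97 (adjusted p = 0.00266). Myl7, a light chain of heart atria, was above background on 1 of 2 CDAHFD arrays and both control arrays at 1 week and on 0 arrays later, and its 1-week value of -1.21 (adjusted p = 0.0145) was -0.04 against the later controls (adjusted p = 0.926). Myl7 entered the tests only through the 1-week controls, where it is highest, so its call is partly set by that choice. That call also ended without control replicate 1 (-0.92, adjusted p = 0.0952) or either CDAHFD array of the week (adjusted p = 0.0657 and 0.0616). Myl4 and Myl6b lay between -0.61 and 0.04 and passed at no week. Under the 4 other scalings, however, Myl6b was lower at 1 week, at -0.82 to -0.94 (adjusted p = 0.0129 to 0.0397), and in a fit on the arrays of that week alone (-0.61, adjusted p = 0.0319), while against the 2- and 6-week controls it was at 0.20 (adjusted p = 0.599).

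Actg1, a cytoplasmic actin, was at 3.98 and 3.86, 4.05 and 3.97, and 3.93 and 3.84 on CDAHFD, against 3.47 and 3.28, 3.08 and 3.34, and 3.02 and 3.31 in controls. All CDAHFD arrays lay above all controls, and it was 0.54, 0.80 and 0.72 higher (each ± 0.13; adjusted p = 0.00872, 9.71e-04 and 0.00166). At 1 week the call ended with median centring (0.21, adjusted p = 0.236), without control replicate 2 or CDAHFD replicate 1 (adjusted p = 0.0584 and 0.0713) and by its second brightest probe of 5 (-0.20, adjusted p = 0.378), which ended the 2-week call too (0.32, adjusted p = 0.175). In a fit over all probes none of the others than the brightest was called at 1 week (adjusted p = 0.0836 to 0.38). Averaging the probes gave 0.50 there (adjusted p = 0.0728). At 6 weeks all 5 probes were called higher, by 0.63 to 1.33.

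Actb, often used as a reference transcript, was at 5.51 and 5.65, 5.57 and 5.51, and 5.41 and 5.35 on CDAHFD, against 6.06 and 6.02, 5.88 and 5.54, and 5.48 and 5.41 in controls. It was lower at 1 week (-0.46 ± 0.13, adjusted p = 0.0147) and not called later (-0.17 and -0.07, adjusted p = 0.331 and 0.715), but with quantile normalization it was 0.32, 0.54 and 0.35 higher (adjusted p = 0.0234, 0.00141 and 0.0138). Against the later controls the 1-week difference was 0.00 (adjusted p = 0.991), and without control replicate 1 or CDAHFD replicate 1 of that week it was not called (adjusted p = 0.066 and 0.106). The direction for Actb therefore depends on the scaling and on which controls are used.

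The diet difference changed between weeks for 2 of the 36 genes, Anxa6 and Myl12b, by a test over the 3 weeks (adjusted p = 0.0287 and 0.0415), and for 2.41% of all genes. Between 1 and 6 weeks it became more positive for 3, and for 2.51% of all genes (5.4% changed either way). Anxa6 changed by 0.82 ± 0.13 (adjusted p = 0.0124), Myl12b by 0.84 ± 0.16 (adjusted p = 0.0196) and Myl12a by 0.54 ± 0.14 (adjusted p = 0.049). All 3 depended on single arrays: without control replicate 1 at 6 weeks the adjusted p was 0.0568, 0.0804 and 0.151. The slides differ between these weeks, and slide and week cannot be told apart.

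Serum response factor and its coactivators were measured too. For these and the partner genes below, the alternatives of scaling, probe and single arrays were not read. Small differences among them may depend on such choices, as they did for several members. Srf was at -0.11, -0.36 and 0.23 (adjusted p = 0.492, 0.037 and 0.153), lower at 2 weeks only. The coactivators Mrtfa (0.21, 0.57 and 1.07; adjusted p = 0.168, 0.00304 and 4.69e-05) and Mrtfb (0.61, 0.66 and 0.70; adjusted p = 0.0423, 0.0345 and 0.0244) were called higher, Mrtfa at 2 and 6 weeks and Mrtfb at every week, and a difference between them was not tested. Of 16 factors and targets on this list, 8, 8 and 10 were higher at 1, 2 and 6 weeks (50%, 50% and 62.5%, where 25.9%, 22.9% and 24.5% of all genes were) and 0, 1 and 0 lower, with a median of 0.95, 1.19 and 0.99. Of all genes 15%, 14.9% and 16.2% were lower. This list and the partner lists below were chosen with earlier results of these data known. Shares above those of all genes are therefore no separate support. The target Tagln, transgelin of smooth muscle and myofibroblasts, was 1.59, 1.59 and 1.80 higher (adjusted p = 1.35e-04, 9.86e-05 and 3.53e-05), and the LIM protein Fhl2 was 2.00, 2.02 and 3.44 higher (adjusted p = 4.37e-04, 3.29e-04 and 8.13e-06).

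The known partners of annexins did not all follow them. Of 23 measured, 9, 12 and 12 were higher at 1, 2 and 6 weeks (39.1%, 52.2% and 52.2%) and 1, 0 and 0 lower. Of all genes 25.9%, 22.9% and 24.5% were higher and 15%, 14.9% and 16.2% lower. S100a10, the binding partner of Anxa2, was at 1.45 and 1.07, 1.38 and 1.40, and 0.99 and 1.40 on CDAHFD, against 0.92 and 1.23, 1.11 and 0.82, and 0.91 and 0.69 in controls, and passed at no week (0.18, 0.42 and 0.40; adjusted p = 0.441, 0.0937 and 0.108). S100a11, which binds Anxa1 and Anxa2, was 2.83, 3.53 and 3.73 higher (adjusted p = 2.37e-05, 4.62e-06 and 2.30e-06). S100a6 (1.66, 2.52 and 3.27) and S100a4 (4.35, 4.60 and 4.87) were higher at each week as well, as was Ehd4 (1.30, 1.92 and 2.04), an ATPase of membrane traffic.

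Most measured partners of actin and tropomyosin were higher at 2 and 6 weeks: of 37, 18, 23 and 24 were higher at 1, 2 and 6 weeks (48.6%, 62.2% and 64.9%) and 1 was lower at each. That 1 was Rdx, radixin, a linker of actin to membrane (-0.53, -0.78 and -1.04). Of all genes 25.9%, 22.9% and 24.5% were higher and 15%, 14.9% and 16.2% lower. Among the genes named by rule, the crosslinker Flna (2.01, 2.16 and 2.46), the capping protein Capg (2.07, 3.63 and 4.19), the monomer-binding Tmsb10 (1.61, 1.96 and 2.41) and the leukocyte coronin Coro1a (2.62, 2.43 and 2.57) were higher at every week. Actn1 was at 0.31, 0.50 and 0.77, called at 2 and 6 weeks, and Actn4 at -0.16, 0.01 and 0.15, called at none.

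Of 19 measured motors and regulators that act on the light chains, 7, 11 and 8 were higher at 1, 2 and 6 weeks (36.8%, 57.9% and 42.1%) and 1, 1 and 0 lower. Of all genes 25.9%, 22.9% and 24.5% were higher and 15%, 14.9% and 16.2% lower. The nonmuscle heavy chains Myh9 (0.35, 0.71 and 0.85; adjusted p = 0.0639, 0.00235 and 6.81e-04) and Myh10 (0.18, 0.67 and 0.95; adjusted p = 0.542, 0.0363 and 0.00648) passed at 2 and 6 weeks, the same weeks as Myl12b. Myh14 was lower at 1 week (-0.52, adjusted p = 0.00336) and higher at 2 weeks (0.33, adjusted p = 0.0299). Median centring moved the median of all genes at 2 weeks from 0.05 to -0.18. Whether the small 2-week difference of Myh14 keeps its call there was not tested. The GTPase Rhoc (1.66, 2.18 and 2.43) and the exchange factor Arhgef2 (2.81, 2.97 and 3.27), which microtubules hold inactive, were higher at each week.

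Of 36 measured microtubule and tubulin-folding partners, 7, 9 and 13 were higher at 1, 2 and 6 weeks and 0, 3 and 3 lower, with medians of 0.07, 0.25 and 0.19. The shares higher, 19.4%, 25% and 36.1%, stand beside 25.9%, 22.9% and 24.5% of all genes. The shares lower, 0%, 8.33% and 8.33%, stand beside 15%, 14.9% and 16.2%. The tubulin-sequestering Stmn1 (1.15, 1.99 and 1.82; adjusted p = 0.0169, 0.00102 and 0.00151) and Map4 (0.60, 0.86 and 0.76; adjusted p = 0.00279, 2.97e-04 and 5.98e-04), a microtubule stabiliser, were higher at each week. Tpx2, a spindle assembly factor, was below background in controls and at least 5.63-fold, 7.11-fold and 6.24-fold higher. Its probe passed the filter only through the CDAHFD arrays. The bound was taken as for Tubb2b, where the size of the difference depended on the background correction. Normexp was not read for Tpx2. The plus-end protein Mapre1 passed at 6 weeks only (0.40, adjusted p = 0.0344).

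**Figure D5:**
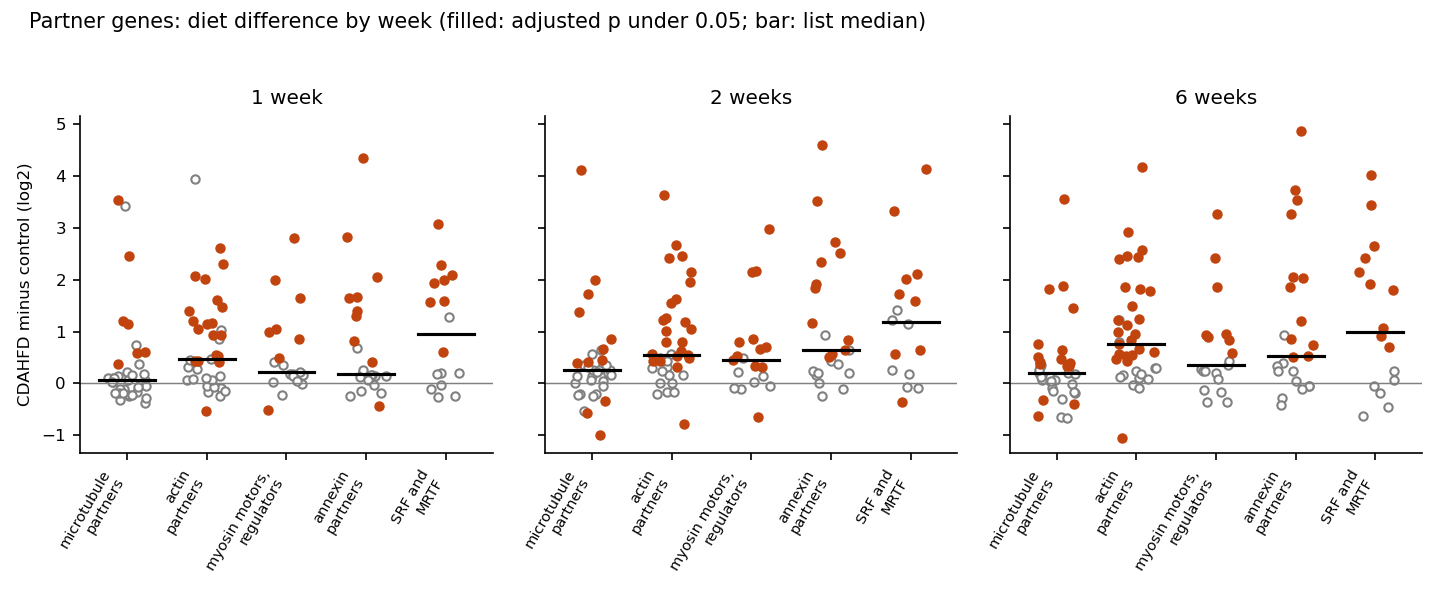
Difference between CDAHFD and control (log2) of each measured gene in 5 lists of partner genes at 1, 2 and 6 weeks, filled where adjusted p was under 0.05, with the list median as a bar. The medians lie between 0.07 for microtubule partners at 1 week and 1.19 for the SRF and MRTF list at 2 weeks.

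Markers of several cell types moved with the members, and their part in these results was not tested. In whole liver, more cells of a type and more RNA per cell cannot be told apart. Summed linear levels of 9 stellate cell and myofibroblast markers were 8.65 to 13.4 on CDAHFD arrays and 1.18 to 2.54 on control arrays, with 7 of 9 higher at 6 weeks. For macrophages and monocytes they were 14.1 to 24 and 4.6 to 9.04 (7 of 9 higher), for dividing cells 1.11 to 2.29 and 0.166 to 0.285 (6 of 6), for cholangiocytes 0.394 to 1.46 and 0.23 to 0.34 (2 of 6), and for neutrophils 1.17 to 2.19 and 0.228 to 0.431 (4 of 6). Each of these sums lay higher on every CDAHFD array than on any control array. Of all genes 24.5% were called higher at 6 weeks.

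The sums of smooth muscle, platelet, mesothelial, B cell and muscle markers also lay higher on every CDAHFD array than on any control array. A sum can be led by its brightest marker, and few of these markers were called. At 6 weeks 1 of 4 smooth muscle, 1 of 3 platelet, 3 of 4 mesothelial, 1 of 3 B cell and 1 of 3 muscle markers were higher. So were 3 of 4 T and NK cell markers, while 1 of 6 endothelial markers was higher and 2 were lower. Of 4 erythroid markers 3 were lower at 6 weeks, and of all genes 16.2% were. Smooth muscle markers summed to 0.348 to 0.503 on CDAHFD and 0.244 to 0.331 in controls, and platelet markers to 0.414 to 0.74 and 0.131 to 0.227. Mesothelial markers summed to 2.57 to 4.62 and 1.12 to 2.09, B cell markers to 0.144 to 0.238 and 0.0725 to 0.123, and T and NK cell markers to 0.727 to 1.1 and 0.499 to 0.826. The mesothelial list includes Krt8, a keratin of other liver epithelia too, so its sum and count are not particular to mesothelium. Endothelial markers overlapped between the diets, at 3.34 to 4.8 and 3.48 to 4.14, and erythroid markers were lower on CDAHFD, at 6.25 to 9.27 and 17.2 to 24. Of 10 skeletal and cardiac muscle markers, 3 were measured, and they summed to 0.0898 to 0.132 and 0.033 to 0.0543.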

How the data were processed

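RNA of mouse liver was labelled with Cy3 and hybridised to 12 single-colour Agilent arrays, 150 ng per array per the labels' protocols. The deposited scanner files hold linear intensities per spot, background-corrected by Agilent Feature Extraction, version 11.5.1.1 per the file headers and 10.7 per the submitters' processing notes. Of 62976 spots per array, 59305 are gene spots, averaged to 55681 probes. Intensities were taken to log2 after outlier-flagged spots were left out (2255 values), and from each array its 75th percentile, over the 20137 probes that every array measured well above background, was taken off. Names came from accessions matched to RefSeq (GRCm38.p6), which gave 28658 named probes and 27023 unnamed ones. The array design used another genome build, so no probe positions are given. A gene was read by its brightest probe among those well above background on both arrays of a group, and 13897 genes were tested with limma 3.58.1 (R 4.3.3; lmFit and eBayes with trend and robust settings, 6 group means, 6 residual degrees of freedom), with Benjamini-Hochberg adjustment over all of them. Well above background were 45.4 to 49.7% of probes on CDAHFD arrays and 40.4 to 44.4% on control arrays, and the small number of arrays limits precision. The members and gene lists were chosen with earlier results of these data known. Every member may be named. Of each partner list, the first 3 measured genes and up to 4 with the smallest adjusted p in the average over weeks are named, and radixin was added after its values were seen. The normexp alternative used the median spot signal, because no mean signal column was in the files used here. Control replicate 1 at 1 week has 5 dim blocks holding 1130 probes, which were masked in 1 alternative. Alternatives covered scaling, filter, probe choice, controls of other weeks, weighting of arrays, a block for replicate number and leaving out each array. The fit was tested on simulated data.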

Additional observations from a re-analysis of the deposited data

Results flagged for a closer look

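The diet difference of 3 genes differed between 6 weeks and 1 week in a test of that difference. Anxa6 changed by 0.82 log2, Myl12b by 0.84 and Myl12a by 0.54 (limma, adjusted p = 0.0124, 0.0196 and 0.049). In Anxa6 the diet difference was 0.34 at 6 weeks and -0.48 at 1 week, in Myl12b 0.78 and -0.06, and in Myl12a 0.86 and 0.32. Both CDAHFD arrays lay above both control arrays at 6 weeks in all 3 genes. Against the controls of 2 and 6 weeks the 1-week value of Anxa6 was -0.18 (adjusted p = 0.119) and that of Myl12a 0.48 (adjusted p = 0.00151). The Myl12a call ended in 19 of the alternatives tried, with adjusted p up to 0.151. The cause was not tested.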

How the results depend on the processing

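Of 4655 gene-level values under alternatives, 4220 kept their direction and side of the threshold, 117 turned sign but were called neither before nor after, 185 lost a call, 108 gained one and 25 turned sign with a call on either side. Members called numbered 18 at 1 week, 16 at 2 weeks, 23 at 6 weeks and 26 for the weeks averaged, and leaving out single arrays gave 13 to 18, 15 to 18, 18 to 24 and 23 to 27. Requiring a 2-fold difference as well left 11 at 1 week, 15 at 6 weeks, 11 in the average, and 0 for a change between weeks by either test. The test over the 3 weeks called 2 genes, 1 with no filter, 0 without the trend and 0 to 4 with single arrays left out. The contrast of 6 weeks with 1 week called 3, 6 with median centring, 5 with normexp and 0 to 5 with single arrays left out. These 25 came with quantile normalization for Actb (0.32, 0.54, 0.35 and, in the average, 0.40) and Anxa6 (average 0.14), with median centring for Myl12a at 1 week (-0.0058), with normexp for Anxa8 (average -0.38) and with the later controls for Actb (0.0020) and Tubb4a (0.71) at 1 week. Averaging a gene's probes reversed Tpm1 (0.79, 0.94, 0.75, average 0.83) and Tpm3 at 2 weeks (-0.0312). The second brightest probe, an alternative chosen after seeing the data like the average without the 1-week arrays, reversed Tpm1 (1.59, 2.05, 1.83, average 1.82), Tubb2b (-1.18, -0.18, -0.42, average -0.59), Actg1 at 1 week (-0.20), Tpm3 at 2 weeks (-0.54) and Myl6 in the average (-0.0523). Causes were not tested. As replicate numbers correlated at only -0.143 to 0.22 between groups, over 0.1 in 4 of 15 pairs, they were not taken as pairs, though arrays of one number also share a slide row; with the replicate block the calls were 18, 16, 23, 27, 2 and 2 across the 6 tests. Dim probes such as Anxa9 and Tubb2b depend on the background correction, and close paralogs may share probe signal.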
